A study of Mus musculus with 6 samples.

Results

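The genes described here make, carry and break down retinoic acid, and they were read in retinae of newborn mice (postnatal day 0) that lacked Meg2, the protein tyrosine phosphatase encoded by Ptpn9, and in wild-type retinae. They were chosen by symbol, as Rbp4, Stra6, Crabp1, Crabp2, Aldh1a1, Aldh1a2, Aldh1a3, Cyp26a1 and Cyp26c1. Each of the 9 had 1 transcript cluster (a group of probes that covers a transcript) named for that gene alone, so no choice between clusters arose, and the 9 stood among 23410 clusters with a gene name and 35557 in all. The groups were 3 Meg2 knockout and 3 wild-type samples, all on the C57BL/6NTac background, and per the labels each sample held both retinae of 1 animal. The sources used here give neither the allele nor the cells in which the gene was lost. RNA was hybridised to Affymetrix Mouse Gene 1.0 ST arrays, and all values are normalised log2 signals, so a difference of 1 is a doubling of signal.

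Retinol circulates bound to retinol-binding protein, enters some cells through the receptor STRA6, and is oxidised first to retinaldehyde and then to retinoic acid. Retinaldehyde dehydrogenases catalyse the last step, cellular retinoic acid-binding proteins hold the product, and CYP26 enzymes destroy it. In the developing mouse eye, Aldh1a1 marks the dorsal retina and Aldh1a3 the ventral retina, and CYP26 enzymes form a stripe poor in retinoic acid between them. Retinoic acid acts through nuclear receptors that bind paired copies of a short half-site.

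The arrays showed a retinal profile, with the median signal per array between 7.84 and 7.91. The retinal transcription factor genes Otx2 and Pax6 read 13.06 to 13.29 and 12.56 to 12.63 on knockout arrays, against 13.11 to 13.19 and 12.52 to 12.59 on wild-type arrays. Of 14 measured retinal genes, 0 had an unadjusted p under 0.05 in limma, against 3.43% of all tested clusters. In the blocked fit, with the replicate number as a term, 1 did, the recoverin gene Rcvrn, against 8.81%. The mean signals of the retinal genes ran from 8.33 to 13.14. Ptpn9 signal was lower on each knockout array, at 9.31, 9.58 and 9.28, than on any wild-type array, at 10.05, 9.93 and 9.94. The Ptpn9 difference of -0.58 (SE 0.087) did not pass correction over all named clusters (limma, adjusted p = 0.437). The replicate numbers of the labels ran with sex-linked transcripts. Xist, which is transcribed from the inactive X chromosome, read 12.58 and 12.54 on knockout arrays 1 and 2 and 12.73 and 12.54 on wild-type arrays 1 and 2, while it read 6.26 and 6.52 on the knockout and wild-type arrays of number 3. The Y-linked gene Uty read 5.22, 7.18 and 9.53 on knockout arrays 1, 2 and 3, and 4.71, 7.67 and 9.34 on wild-type arrays 1, 2 and 3. Both arrays of number 2 thus carried Xist and Y-linked signal together, although the labels give 1 animal per sample.

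Cyp26a1 and Rbp4 are the members whose arrays did not overlap between genotypes, so the 250 bases before their RefSeq start sites are shown 5′ to 3′ (build GRCm38.p6). Cyp26a1 lies on the plus strand at chr19:37697558-37697807, and capitals mark a direct repeat of 2 half-sites with 5 bases between them. The Rbp4 window lies on the minus strand at chr19:38124812-38125061, and capitals mark the letters TATAAA.
Cyp26a1: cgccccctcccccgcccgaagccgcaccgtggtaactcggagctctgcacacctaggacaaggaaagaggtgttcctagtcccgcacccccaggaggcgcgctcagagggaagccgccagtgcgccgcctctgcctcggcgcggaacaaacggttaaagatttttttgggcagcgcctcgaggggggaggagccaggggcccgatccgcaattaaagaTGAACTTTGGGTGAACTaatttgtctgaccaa
Rbp4: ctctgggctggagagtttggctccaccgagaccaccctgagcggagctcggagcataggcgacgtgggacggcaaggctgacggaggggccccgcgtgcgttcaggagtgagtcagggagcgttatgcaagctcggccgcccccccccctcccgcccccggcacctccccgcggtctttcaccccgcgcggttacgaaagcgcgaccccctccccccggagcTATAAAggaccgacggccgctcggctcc
The search took AGGTCA or AGTTCA as each half-site, on both strands, with 5 bases between them (DR5) or 2 bases (DR2). On the strand opposite to the one shown, the Cyp26a1 match reads AGTTCACCCAAAGTTCA, and it ends 15 bases before the start site. Windows were found for 7 of the 9 genes, 12 windows in all, and the DR5 form was in 1 of the 12, against 11 of 32851 windows of all genes (0.0335%). None of the 12 held the DR2 form, which was in 12 of the 32851 (0.0365%). TATAAA, on either strand, was in 1 of the 12 and in 12.4% of all windows. These matches describe letters in a window and do not show that a factor binds there. Rbp4 has a second window, farther upstream, with no match to any of these patterns.

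The comparison asked whether genes of retinoic acid handling differed between knockout and wild-type retina. The values in this paragraph are from the fit without the replicate number, and the blocked fit is given below. Rbp4 was the member with the largest difference, 1.56-fold higher in the knockout, and the 95% intervals of the other 8 differences included 0. No member passed correction over the 23410 named clusters (limma, Benjamini-Hochberg; adjusted p = 0.9995 for each of the 9), and neither did any other cluster. At an unadjusted p under 0.05, limma held 1 of the 9 members, Rbp4, against 803 of all tested clusters (3.43%). By direction, 1 member was higher in the knockout, against 1.69% of all tested clusters, and 0 were lower, against 1.74%. The 2 genotypes did not overlap for 2 of the 9 members, against 8.43% of all tested clusters. Of these, Rbp4 was higher in the knockout, against 4.08% of all tested clusters, and Cyp26a1 was lower, against 4.35%. With 9 genes, counts of 1 or 2 are too small to set the members apart from these shares. The median difference over the 9 was -0.040 on the log2 scale, and 0.0012 over all tested clusters. Of all tested clusters, 50.7% lay above 0, which is the share to set beside the counts above 0 in the lists below. The tissue was measured in bulk, so fewer cells of a type and less RNA per cell cannot be told apart.

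**Figure D1:**
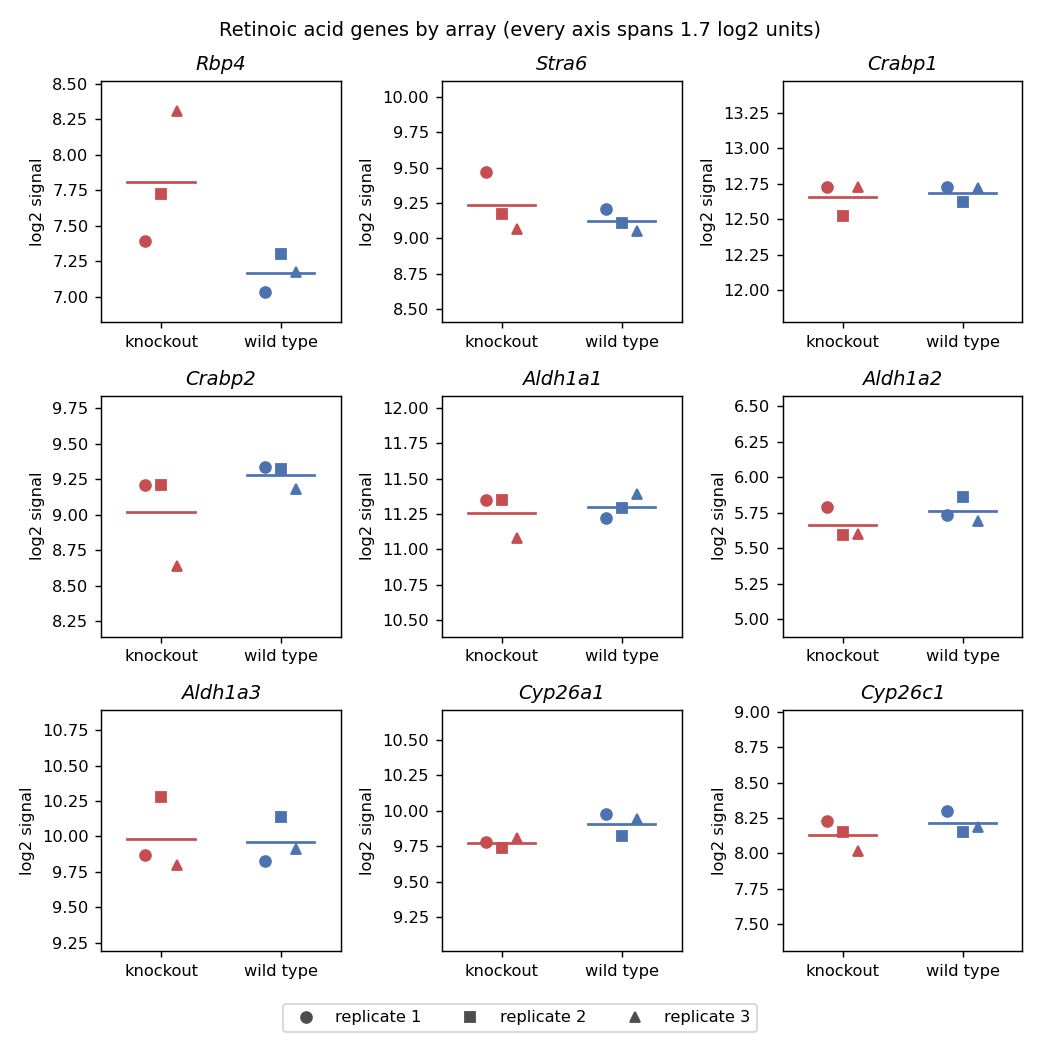
Log2 signal of the 9 genes on each array, with knockout left of wild type in every panel, symbols for the replicate number and a line at each group mean. Every vertical axis spans the same width. Rbp4 lies between 7.39 and 8.31 in the knockout and between 7.03 and 7.30 in the wild type, and knockout array 3 is the lowest for Crabp2 at 8.64.

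Rbp4 encodes the plasma carrier of retinol, which is made mainly by the liver and also by other tissues. Its log2 signal was 7.39, 7.72 and 8.31 on the knockout arrays, against 7.03, 7.30 and 7.17 on the wild-type arrays. Every knockout array was higher than every wild-type array, but the gap between the groups was only 0.089, and knockout array 3 stood well above the others. Knockout arrays averaged 7.81 ± 0.47 and wild-type arrays 7.17 ± 0.13 (SD, n = 3 each). The difference was 0.64 (SE 0.20, 95% interval 0.19 to 1.09), with an unadjusted p of 0.0103 (limma). Without knockout array 3 it was 0.39, or 1.31-fold, and without both arrays of number 2 it was 0.75. Within numbers 1, 2 and 3 the knockout exceeded the wild type by 0.36, 0.42 and 1.14.

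The Rbp4 signal in wild-type retina was within the range given by genes of other organs. Of 20 such genes, among them albumin and protamines, mean signals lay between 4.17 (Scgb1a1) and 7.89 (Apoa2), and signals of different clusters also reflect how well their probes bind. Of these 20 genes, 1 had an unadjusted p under 0.05, against 3.43% of all tested clusters, the glucagon gene Gcg. It was higher in the knockout by 0.18 (SE 0.058; limma, adjusted p = 0.9995). Its arrays did not overlap, as in 8.43% of all tested clusters. The brightest of the 20 genes, Apoa2 and the muscle creatine kinase gene Ckm, differed by 0.024 (SE 0.075) and 0.016 (SE 0.060).

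Knockout array 3, where Rbp4 was highest, also had the highest mean of the lens, vascular, amacrine and retina lists, but not of the pigment, mesenchyme, ciliary and corneal or other-organ lists. Single genes of a list varied, and those highest on that array were 4 of 11 in the lens list, 8 of 14 in the vascular list, 8 of 10 in the amacrine list and 6 of 14 in the retina list. For the lens list, 9 of 11 measured genes lay above 0, against 50.7% of all tested clusters. The list's mean signal per array ran from 7.63 to 7.91 in the knockout and from 7.54 to 7.68 in the wild type. The lens crystallin gene Cryaa read 7.70, 7.78 and 8.70 in the knockout, against 7.60, 7.58 and 7.42 in the wild type. Cryaa was the 1 of 11 lens genes at an unadjusted p under 0.05, against 3.43% of all tested clusters, and 4 were so with the replicate number as a block, against 8.81%. For the brightest lens genes the difference was 0.14 (SE 0.084) in Crybb1, a crystallin gene, and -0.0075 (SE 0.074) in Gja3, which encodes a connexin. For genes of endothelial cells and pericytes, 12 of 14 lay above 0, against that share of 50.7%. Their mean signal was 7.92 to 8.22 in the knockout and 7.86 to 7.96 in the wild type. Cdh5, the gene of VE-cadherin, read 7.74, 7.49 and 8.09 in the knockout, against 7.37, 7.26 and 7.07 in the wild type. Cdh5 and the pericyte gene Rgs5 differed by 0.54 (SE 0.14) and 0.50 (SE 0.11) and were 2 of the 4 genes of 14 at an unadjusted p under 0.05, all higher in the knockout, against 1.69% of all tested clusters (limma, adjusted p = 0.9995 for both). The brightest of the list, the receptor gene Kdr and the tight junction gene Cldn5, differed by -0.070 (SE 0.083) and 0.077 (SE 0.11). Pigment epithelium genes lay above 0 in 9 of 14, at a mean signal of 7.06 to 7.31 in the knockout and 7.06 to 7.17 in the wild type. Periocular mesenchyme genes did so in 6 of 11, at 7.15 to 7.29 in the knockout and 7.06 to 7.18 in the wild type. The 1 mesenchyme gene of 11 at an unadjusted p under 0.05, against that share of 3.43%, was the proteoglycan gene Bgn. It differed by 0.59 (SE 0.097; limma, adjusted p = 0.451), while the collagen genes Col1a1 and Col1a2 differed by 0.048 (SE 0.078) and -0.028 (SE 0.089). In the list of ciliary and corneal epithelium, 5 of 10 lay above 0 and 2 had an unadjusted p under 0.05, against 3.43% of all tested clusters, Wfdc1 at 0.34 (SE 0.085) and Otx1 at 0.17 (SE 0.070). Its brightest genes, Mab21l2 and Mfap4, differed by -0.0087 (SE 0.066) and -0.022 (SE 0.059). The mean signals of Cryaa, Cdh5, Rgs5, Bgn and Otx1 (7.80, 7.51, 7.45, 7.79 and 7.81) lay within the range of the genes of other organs. Across the 6 arrays, Pearson's r with Rbp4 was 0.798 for the amacrine mean, 0.735 for the lens mean, 0.686 for the vascular mean and 0.596 for the retina mean. It was 0.515 for the ciliary and corneal mean, 0.060 for the mesenchyme mean, -0.312 for the pigment mean and -0.495 for the mean of genes of other organs. These are descriptions over 6 arrays, and the part of cell makeup in the Rbp4 difference was not tested.

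**Figure D2:**
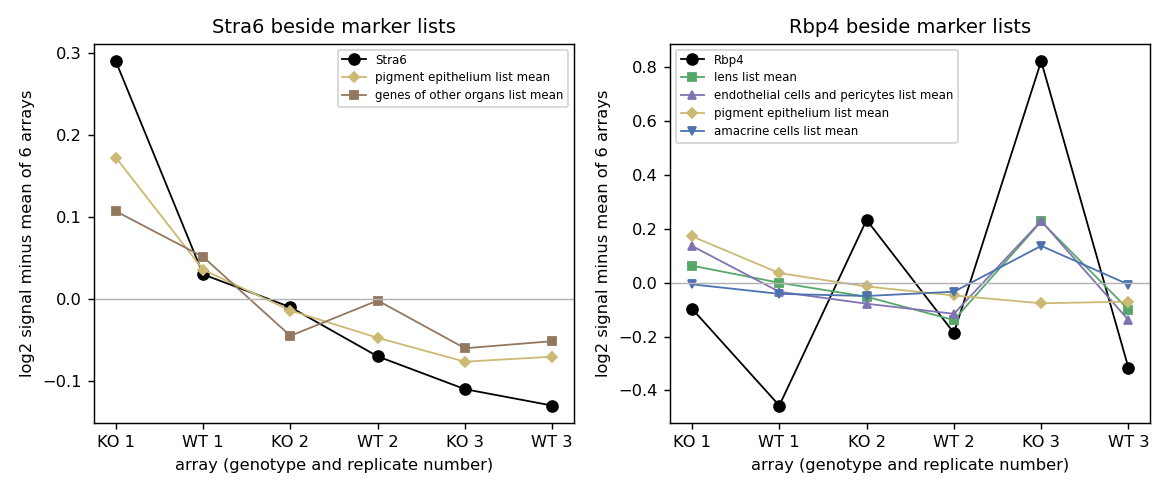
Deviation of Stra6 (left) and Rbp4 (right) from their mean over the 6 arrays, in log2 signal, beside the mean deviation of marker lists, with arrays grouped by replicate number and knockout left of wild type. Stra6 runs with the pigment epithelium mean (r = 0.994) and with the mean of genes of other organs (r = 0.904), while Rbp4 is highest on knockout array 3, where the lens, vascular and amacrine means are highest too.

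Stra6, the membrane receptor that takes up retinol from its carrier and is known from the pigment epithelium, read 9.47, 9.17 and 9.07 in the knockout, against 9.21, 9.11 and 9.05 in the wild type. The groups overlapped, and in both genotypes number 1 was highest and number 3 lowest. The difference was 0.11 (SE 0.10, 95% interval -0.12 to 0.34). Without knockout array 1, but with wild-type array 1 kept, the Stra6 difference was -0.0052. Within numbers 1, 2 and 3 the knockout was higher by 0.26, 0.058 and 0.020. The same order of arrays was seen in the pigment epithelium list, whose mean correlated with Stra6 at r = 0.994 over the 6 arrays. It was not particular to pigment genes, since the mean of the 20 genes of other organs had the same order within each genotype (r = 0.904) and the mesenchyme mean had an r of 0.916. The part of these lists in the pattern of Stra6 was not tested. Singly, 13 of the 14 pigment genes had an r above 0, with a median of 0.761. Pmel, a melanosome matrix gene, read 9.06, 8.62 and 8.21 in the knockout, against 8.56, 8.47 and 8.23 in the wild type. The pigment genes Dct and Tyr differed by 0.018 (SE 0.094) and 0.19 (SE 0.071), and Tyr was the 1 of 14 at an unadjusted p under 0.05, against 3.43% of all tested clusters (limma, adjusted p = 0.9995). With the number as a block there were 2, Tyr and Ttr, against 8.81%. The mean signals of Tyr and Ttr, 5.85 and 7.34, lay within the range of the genes of other organs. Rpe65, a visual cycle enzyme that defines mature pigment epithelium, averaged 5.62, within the range of the genes of other organs. Ttr, which encodes transthyretin, the partner of the retinol carrier in plasma, read 7.83, 7.29 and 7.32 in the knockout, against 7.37, 7.10 and 7.13 in the wild type. Ttr overlapped between genotypes and differed by 0.28 (SE 0.14; limma, adjusted p = 0.9995), with the knockout higher within all 3 numbers.

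Crabp1 and Crabp2 encode the cytosolic proteins that bind retinoic acid. Crabp1 was among the brightest clusters, at the 97.9th percentile of those tested, and its groups overlapped. Its signal was 12.73, 12.52 and 12.73 in the knockout, against 12.73, 12.62 and 12.72 in the wild type, a difference of -0.028 (SE 0.074, 95% interval -0.20 to 0.14). In fold terms that interval reaches from 0.873 to 1.10. Number 2 was the lowest in both genotypes.

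Crabp2 read 9.21, 9.21 and 8.64 in the knockout, against 9.34, 9.32 and 9.18 in the wild type. It was lower in the knockout within all 3 numbers, by -0.13, -0.12 and -0.53 for numbers 1, 2 and 3, although knockout arrays 1 and 2 overlapped with wild-type array 3. The difference was -0.26 (SE 0.14, 95% interval -0.58 to 0.061), and -0.072 without knockout array 3, which stood apart from the other 2. Crabp2 is known from amacrine cells, the inhibitory interneurons of the inner retina. Over the 6 arrays it ran opposite to the mean of 10 amacrine genes (r = -0.969). Of these 10, 0 had an unadjusted p under 0.05 in limma, against 3.43% of all tested clusters. Singly, 2 of the 10 had an r above 0, with a median of -0.82 and a highest value of 0.328. Crabp2 also ran opposite to the lens mean (-0.833), the retina mean (-0.795) and the vascular mean (-0.748), and the part of cell makeup in its difference was not tested. That amacrine mean was 10.64, 10.60 and 10.78 in the knockout and 10.60, 10.61 and 10.64 in the wild type, highest on knockout array 3. Of the 10 genes, 9 lay above 0, against 50.7% of all tested clusters, and 1 below, with a median difference of 0.064. The brightest, the transcription factor genes Tfap2b and Barhl2, differed by 0.030 (SE 0.060) and -0.0069 (SE 0.060), and Barhl2 was the 1 below 0.

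The retinaldehyde dehydrogenases did not separate the genotypes. Aldh1a1, the dorsal enzyme, read 11.35, 11.35 and 11.08 in the knockout, against 11.22, 11.29 and 11.39 in the wild type. Knockout array 3 was the lowest and wild-type array 3 the highest, so the within-number differences of 0.13, 0.059 and -0.31 had both signs. The difference was -0.040 (SE 0.087, 95% interval -0.24 to 0.16). Aldh1a7, a close relative of Aldh1a1 whose RNA could share probes with it, had a dim cluster at a mean of 6.90 and differed by 0.058 (SE 0.10).

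Aldh1a3, the ventral enzyme, read 9.87, 10.28 and 9.80 in the knockout, against 9.83, 10.14 and 9.91 in the wild type. Number 2 was the highest in both genotypes, at a mean of 10.21, against 9.85 for number 1 and 9.86 for number 3. The spread between numbers was therefore far larger than the genotype difference of 0.024 (SE 0.13, 95% interval -0.27 to 0.32). Crabp1 ran opposite to Aldh1a3 over the 6 arrays (r = -0.975), since number 2 was its lowest. Number 2 was also the pair of arrays with both Xist and Y-linked signal.

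Aldh1a2, the main enzyme of the early mouse embryo, gave a signal at the 11.3th percentile of tested clusters and within the range of the genes of other organs. It read 5.79, 5.59 and 5.60 in the knockout, against 5.73, 5.86 and 5.69 in the wild type, with overlap. The difference was -0.10 (SE 0.078, 95% interval -0.28 to 0.077).

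Cyp26a1 and Cyp26c1 encode enzymes that break retinoic acid down, and Cyp26a1 is a classical gene induced by retinoic acid. Cyp26a1 read 9.78, 9.74 and 9.81 in the knockout, against 9.98, 9.82 and 9.94 in the wild type. Every knockout array was below every wild-type array, by a gap of only 0.0089. Knockout arrays averaged 9.78 ± 0.037 and wild-type arrays 9.91 ± 0.083 (SD, n = 3 each), a ratio of 0.911. The difference was -0.13 (SE 0.063, 95% interval -0.28 to 0.0096; limma, unadjusted p = 0.0638). This is the gene whose upstream window held the DR5 match printed above.

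Cyp26c1 read 8.23, 8.15 and 8.02 in the knockout, against 8.30, 8.15 and 8.19 in the wild type, with overlap. Its difference was -0.079 (SE 0.074, 95% interval -0.25 to 0.089). Cyp26c1 and Cyp26a1 are neighbours on chromosome 19 with 0 protein-coding genes between them. Between Cyp26a1 and Rbp4 lie 3, and Rbp4 was 1 of 3 members with a difference above 0. Crabp1 and Stra6 lie on either side of Ptpn9 on chromosome 9, each with 26 protein-coding genes between it and Ptpn9, and neither was separated between genotypes.

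**Figure D3:**
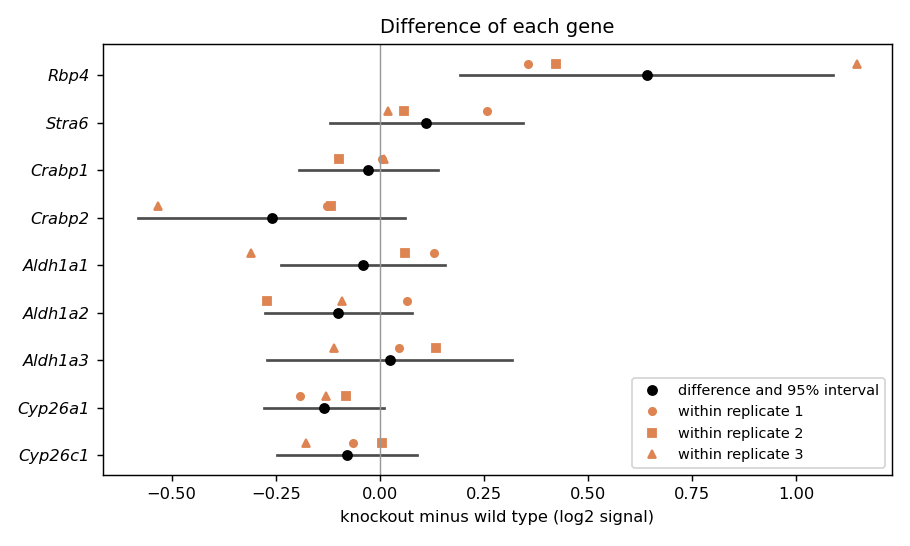
Knockout minus wild-type difference in log2 signal for each gene (black points, with 95% intervals from limma) and the same difference within each replicate number (orange symbols). Intervals are from the fit without the replicate number. The interval of Rbp4 runs from 0.19 to 1.09, and the other 8 intervals include 0.

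The replicate number as a block added members at the unadjusted level. Arrays that share a number deviated together, and with the number in the fit 3 of the 9 members had an unadjusted p under 0.05, Rbp4, Crabp2 and Cyp26a1 (limma, 0.00356, 0.0223 and 0.0282). In that fit 8.81% of all tested clusters did so too. The 1 higher member stood against 4.46% of all tested clusters, and the 2 lower ones against 4.36%. Adjusted p in the blocked fit was 0.514, 0.530 and 0.542 for these genes, and 1 cluster of the 23410 (0.00427%), not a member, passed correction. Of the 9 members, 4 differed the same way within all 3 numbers, namely Rbp4 and Stra6 (higher) and Cyp26a1 and Crabp2 (lower). The share of all tested clusters that did so was not computed, so this count does not set the members apart.

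**Figure D4:**
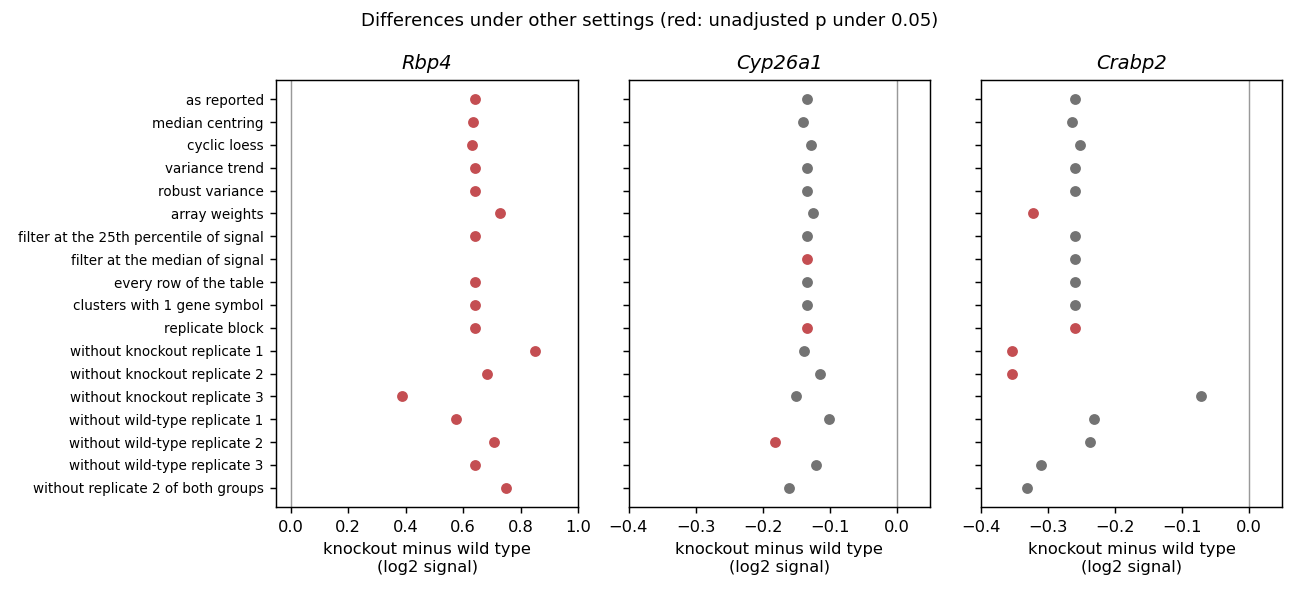
Knockout minus wild-type difference in log2 signal of Rbp4, Cyp26a1 and Crabp2 as reported and under each other setting, in rows, with red for an unadjusted p under 0.05. Rbp4 stays between 0.39 and 0.85, and is missing from the filter at the median of signal because its cluster is dimmer than that. Crabp2 moves to -0.072 without knockout replicate 3.

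Genes that feed, buffer or inactivate retinoids outside the 9 were also compared. Of 25 measured genes, 0 had an unadjusted p under 0.05 in limma, against 3.43% of all tested clusters. Among the 25, 14 lay above 0 and 11 below, with a median of 0.0079 on the log2 scale. With the replicate number as a block, 5 of the 25 were at that level, against 8.81% of all tested clusters, and none passed correction. Ttr and Rbp3 were the 2 higher in the knockout (unadjusted p = 0.00443 and 0.0493, limma), and the 3 lower were the retinaldehyde carrier gene Rlbp1, the retinol dehydrogenase gene Rdh12 and the alcohol dehydrogenase gene Adh7 (0.0122, 0.0397 and 0.0338). Adjusted p in the blocked fit ran from 0.514 to 0.566 over these 5 genes. The mean signals of Ttr, Rdh12 and Adh7 (7.34, 7.15 and 6.84) lay within the range of the genes of other organs. Rbp3, the retinoid carrier of the space around photoreceptors, read 12.61, 12.66 and 12.80 in the knockout, against 12.51, 12.60 and 12.58 in the wild type. Those arrays did not overlap, by a gap of only 0.0064, and the difference was 0.12 (SE 0.067; limma, adjusted p = 0.9995). Rdh10, which makes retinaldehyde for the embryo, differed by 0.090 (SE 0.065). Its arrays also did not overlap, by a gap of only 0.0011. In all, 3 of the 25 genes did not overlap, each higher in the knockout, against 4.08% of all tested clusters. The difference was -0.055 (SE 0.079) for Cyp26b1, the third CYP26 enzyme, and -0.072 (SE 0.062) for Fabp5, a fatty acid carrier that also binds retinoic acid.

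Of 12 measured receptors and cofactors and 15 measured target genes of retinoic acid, 0 had an unadjusted p under 0.05 in limma. The share of all tested clusters was 3.43%, and lists of this size are too small to set 0 apart from it. For 1 of the 15 target genes the arrays did not overlap, higher in the knockout, against 4.08% of all tested clusters. Over 12 receptors and cofactors the differences ran from -0.072 to 0.055, with 6 above 0 and 6 below. Rarb, a receptor gene that is itself induced by retinoic acid, read 9.66, 9.64 and 9.88 in the knockout, against 9.73, 9.73 and 9.82 in the wild type. The coactivator genes Ncoa1 and Ncoa2 differed by 0.016 (SE 0.055) and -0.0081 (SE 0.062). Over 15 measured target genes, 11 lay below 0 and 4 above, against 50.7% of all tested clusters above 0. Their median was -0.026, and the largest single difference was 0.111 in size. Mean signals of the target genes ran from 5.34 to 12.80, so the dimmest lay within the range of the genes of other organs. The lists also share genes, such as Rarb with the receptors and Dhrs3 with the other retinoid handling genes. Dhrs3, a retinaldehyde reductase induced by retinoic acid, gave -0.11 (SE 0.072), and the homeobox genes Meis1 and Meis2 gave -0.028 (SE 0.055) and -0.036 (SE 0.067).

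Genes that mark the dorsal and ventral retina were compared because the dehydrogenases divide along that axis. Bmp4, the dorsal growth factor gene, was the 1 of 8 dorsal genes at an unadjusted p under 0.05, against 3.43% of all tested clusters. It read 8.96, 8.40 and 8.48 in the knockout, against 8.03, 8.19 and 8.35 in the wild type. Its arrays did not overlap, as in 8.43% of all tested clusters. The difference was 0.42 (SE 0.14; limma, unadjusted p = 0.0170, adjusted p = 0.9995). The dorsal transcription factor genes Tbx2 and Tbx3 differed by 0.0012 (SE 0.064) and 0.014 (SE 0.058). In the ventral list 0 of 7 measured genes had an unadjusted p under 0.05 in limma, against the same share of 3.43%. The transcription factor gene Vax2 and the ephrin receptor gene Ephb3 differed by 0.030 (SE 0.055) and -0.016 (SE 0.060).

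**Figure D5:**
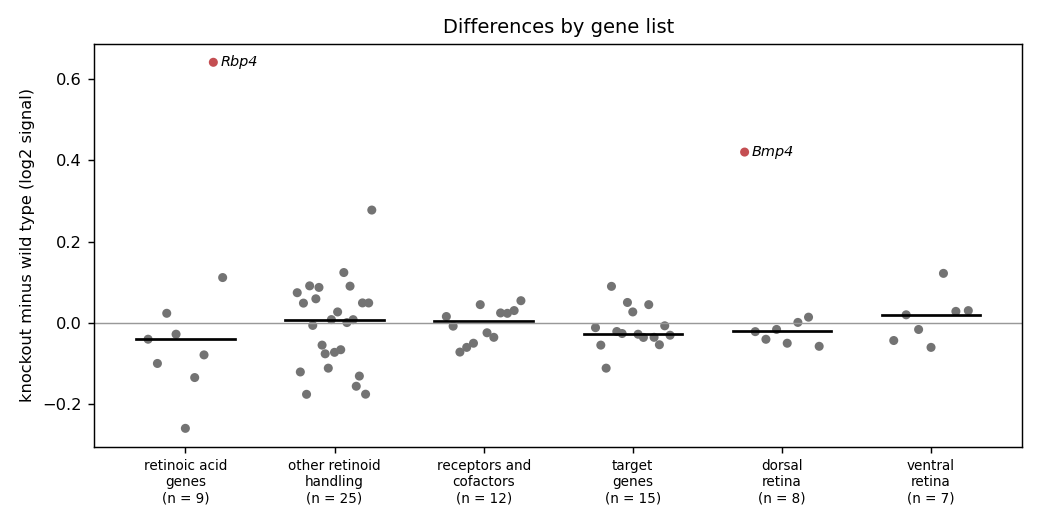
Knockout minus wild-type difference in log2 signal of each measured gene in the 6 lists, with a bar at the list median and red for an unadjusted p under 0.05. Rbp4 and Bmp4 are the 2 named points, and list medians lie between -0.040 and 0.020.

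Genes with the most similar pattern over the 6 arrays were sought among other genes brighter than the median cluster, by Pearson's r, as a description. Btg1, an antiproliferative gene, and Ctsd, a lysosomal protease gene, ran closest to Rbp4 (r = 0.998 and 0.997). Btg1 read 12.22, 12.29 and 12.39 in the knockout, against 12.16, 12.21 and 12.19 in the wild type, a difference of 0.12. Cacng4 and Gm9958 were closest to Crabp2 (0.995 and 0.985), and Tent5b and Mir680-3 to Stra6 (0.986 and 0.985). Ube2s and Mob3b were closest to Cyp26a1 (0.991 and 0.988), and Inafm2 and Cenpm to Cyp26c1 (0.989 and 0.982). Meaf6 and Pou4f1, a ganglion cell transcription factor gene, were closest to Aldh1a3 (0.996 each), and Xkr8 and Ubxn2b to Crabp1 (0.995 and 0.992). Wasf1 and Rab1a were closest to Aldh1a1 (0.984 and 0.972), and Spata33 and Ltbr to Aldh1a2 (0.948 and 0.940). With 6 arrays a high r is weak evidence of likeness, and the number of genes above an r of 0.95 differed by member. It was 128 for Aldh1a3, 90 for Crabp1, 69 for Rbp4, 36 for Cyp26a1, 21 for Crabp2 and 11 for Stra6. For Cyp26c1, Aldh1a1 and Aldh1a2 it was 5, 4 and 0.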

How the data were processed

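Total RNA of 6 samples was labelled as sense-strand cDNA and hybridised, per the labels' protocols. The authors deposited log2 signals per transcript cluster, made with Affymetrix Expression Console and RMA per the submitters' processing notes, which also name Transcriptome Analysis Console. Because RMA sets all arrays to 1 distribution, it can hide a change common to most transcripts. The sources used here give no versions and no annotation release.

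The genotypes were compared in R 4.3.3 with limma 3.58.1 (lmFit, eBayes) on the values as deposited, with no filter, over 23410 clusters with a gene name in the platform annotation, 21789 of them with exactly 1. Differences are knockout minus wild type, with moderated SE and Benjamini-Hochberg adjustment at a threshold of 0.05. An exact permutation test of 3 against 3 cannot go below 0.1 and was not used. The fit was also run on simulated arrays with independent noise. Those lack the shared deviations of arrays with the same number, so that run does not bear on the precision of the differences here.

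The members and lists were chosen with earlier results of these data known. Of the list genes, those named are the 2 with the highest signal per list and those with an unadjusted p under 0.05, with up to 2 of the latter for tissue lists. For each member, the 2 other genes above the median signal with the highest Pearson r are named. Outside this rule, Ttr, Rpe65, Scgb1a1, Cyp26b1, Rdh10, Rarb, Dhrs3, Aldh1a7, Rlbp1, Rdh12, Adh7, Rcvrn, the sex-linked genes and the correlations with lists were chosen after their values were seen. List genes without a cluster of their own were not analysed here.

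Replicate numbers come from the labels. Deviations from group means correlated at 0.476, 0.485 and 0.455 between arrays of numbers 1, 2 and 3, above the 0.1 taken as pairing, so the number was also fitted as a block. Because the numbers ran with Xist and Y-linked signal, what the block removes cannot be told apart from sex. The number of arrays limits precision. Promoter sequences and gene order are from RefSeq, GRCm38.p6, matched by gene identifier.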

Additional observations from a re-analysis of the deposited data

How the results depend on the processing

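The members were refitted after cyclic loess or median centring, with array weights, with a trended or a robust variance, over other sets of clusters (all rows, single-symbol ones, and those above the 25th percentile or the median signal), with the replicate block, and without single arrays or both arrays of number 2. The mean of several clusters per gene was not run, since each member had 1. No member passed an adjusted p of 0.05 in any of the 17. The number of members at an unadjusted p under 0.05 was 1 as reported, 2 with array weights, 3 with the replicate block, and from 1 to 3 when single arrays were left out. With the filter at the median of signal that 1 was Cyp26a1, because Rbp4, Cyp26c1 and Aldh1a2 were not in the fit. Rbp4 was at that level in all 16 alternatives that held it, with adjusted p from 0.514 to 1.00. Of 149 member values, 139 kept their direction and 10, in Aldh1a1, Aldh1a3, Stra6 and Crabp1, did not. Aldh1a3 was -0.0052 with array weights and -0.033 without replicate 2 of both groups, and Crabp1 was 0.0075 without replicate 2 of both groups. With single arrays left out, Aldh1a1 ran from -0.086 to 0.049, Aldh1a3 from -0.12 to 0.11, Stra6 from -0.0052 to 0.19 and Crabp1 from -0.063 to 0.041. The cause was not tested. Without knockout replicate 1, Aldh1a2 had an unadjusted p under 0.05. The share of all tested clusters at that level was computed only for the fit as reported and for the blocked fit. Member counts under the other settings therefore have no share to be set against. The median over members and the Ptpn9 difference kept direction and side of the threshold throughout. With the replicate block, the share of all tested clusters at an unadjusted p under 0.05 rose from 3.43% to 8.81%. In the lists, the number of genes at that level moved to 5 of 25 other retinoid handling genes (0 without the block). It was 4 of 11 lens genes (1), 6 of 14 vascular genes (4) and 2 of 14 pigment genes (1). It was also 3 of 10 ciliary and corneal genes (2) and 1 of 14 retinal genes, Rcvrn (0). The block left the number unchanged in the other lists, and no list gene passed correction with it. Members near the signal of genes of other organs, Rbp4 and Aldh1a2, are limited by that signal.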
